A study of Mus musculus with 10 samples.

Results

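Parp8, Parp9, Parp10, Parp11, Parp12, Parp14 and Dtx3l were followed as a group of ADP-ribosyltransferase genes tied to the interferon (IFN) response, together with a partner that is a ubiquitin ligase, and Parp1 and Parp2 were followed as family members that are not. The 9 genes were taken by name from a table of 36009 genes measured in CT26 tumors, each name matched 1 row, and all 9 were among the 16041 genes that passed a filter on low counts and were tested. Members were chosen by name with earlier results of these data known, and not by a threshold on any value.

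RNA came from 10 subcutaneous tumors of CT26, a colorectal carcinoma line of the mouse, grown in female BALB/c mice. CT26 cells were wild type (WT) and the tumors untreated. At surgery 90% of a tumor was removed, the resected piece was kept for polyA RNA sequencing, and a hydrogel releasing poly(I:C), a synthetic double-stranded RNA, was laid on what remained. Tumors were then named by outcome, with 6 responders (complete regression) and 4 non-responders (no delay in growth), and the comparison asks whether a tumor that went on to respond already differed before it met the treatment. The groups were defined by this later outcome alone. Cell line, strain and sex were shared by all tumors, and no batch was given in the labels.

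PARP enzymes take ADP-ribose from NAD+ and attach it to proteins. Parp1 and Parp2 are bound to broken DNA and build long chains of it, whereas most of the other members attach a single unit, and several of these are transcribed when type I or type II IFN binds its receptor. Parp9 and Dtx3l form a complex in which Dtx3l is the ubiquitin ligase, and Parp9 and Parp14 carry macrodomains, which bind ADP-ribose.

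The genes of the complex are neighbors. On GRCm38, Dtx3l lies on the minus strand at chr16:35926511-35939151 and Parp9 on the plus strand at chr16:35938470-35972605, so that they are transcribed away from each other and their annotated starts are 681 bases apart. Their exons share 458 bases on opposite strands. The strand setting of the counting was not given in the sources used here, so the assignment of reads from those bases to Parp9 or Dtx3l is uncertain. Parp14, on the minus strand at chr16:35832874-35871544, starts 67.6 kb downstream of the start of Dtx3l. No other protein-coding gene is annotated between Dtx3l and Parp14.

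**Figure D1:**
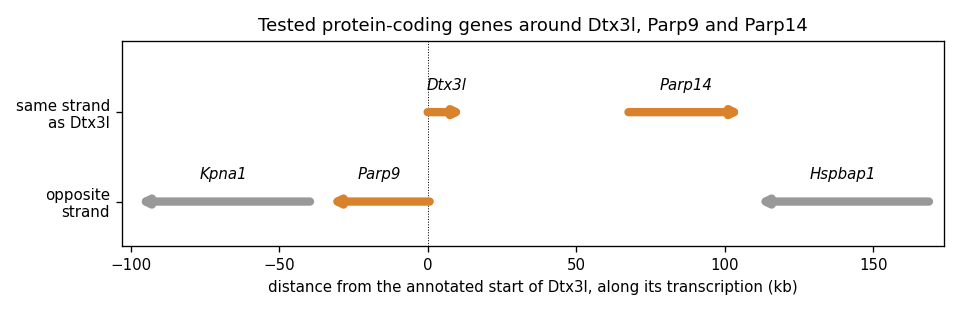
Protein-coding genes around Dtx3l on mouse chromosome 16, by distance in kb from the annotated start of Dtx3l along its direction of transcription (x axis) and by strand (y axis). Arrows give the direction of transcription, with members in orange and the neighbors Kpna1 and Hspbap1 in gray. Parp9 and Dtx3l start 0.681 kb apart, overlap between their starts and run in opposite directions. Parp14 starts 67.6 kb from the start of Dtx3l along its transcription.

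The other members are scattered. Parp11 lies at chr6:127446840-127494261 on the plus strand and Parp12 at chr6:39086410-39118349 on the minus strand of the same chromosome. Parp10 is on the minus strand at chr15:76231174-76243441 and shares 205 exon bases with Plec on the same strand. Parp8 is at chr13:116854820-117025537 (minus), Parp1 at chr1:180568924-180601254 (plus) and Parp2 at chr14:50807841-50821301 (plus).

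Short stretches upstream of 4 members are printed as examples. Each has 60 bases of RefSeq promoter sequence (GRCm38.p6), written 5′ to 3′ on the strand of the gene. For Parp11, Parp12 and Parp1 the stretch ends right before the RefSeq start, and for Dtx3l it is bases -239 to -180, which lie outside every annotated exon of Parp9 and Dtx3l. Capitals mark a match to the core of the IFN-stimulated response element (ISRE) on either strand, a sequence found in promoters of many IFN-induced genes.
Parp11 (chr6:127446780-127446839, plus): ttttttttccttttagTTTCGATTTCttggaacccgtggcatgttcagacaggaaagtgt
Parp12 (chr6:39118350-39118409, minus): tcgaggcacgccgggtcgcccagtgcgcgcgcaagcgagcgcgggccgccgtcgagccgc
Dtx3l (chr16:35939207-35939266, minus): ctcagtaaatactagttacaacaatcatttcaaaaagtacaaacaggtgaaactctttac
Parp1 (chr1:180568831-180568890, plus): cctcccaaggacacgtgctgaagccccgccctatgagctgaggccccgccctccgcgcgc

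Promoter windows of 300 bases, from 250 before to 50 after the RefSeq start, were found for 6 of the 9 members, in 7 windows. Parp9, Parp10 and Parp14 were not in the table. Both strands were searched for the ISRE core and for the gamma-activated site (GAS), TTCNNNGAA, named for its role in the response to type II IFN. Only the first of the 2 windows of Parp11 held a match, an ISRE core on the reverse strand at position -44 from the start, and a GAS at position -37 that overlaps it. Among all 32851 mouse windows, 3.44% held the ISRE core and 8.30% the GAS. The other windows of the members lacked these letters, which says nothing about a more distant or less perfect site.

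Responders had from 29065126 to 38042544 assigned counts and non-responders from 23374649 to 32986456. No pair of libraries agreed within sampling noise, so each tumor was counted as a separate sample, and p-values measure the spread between these 10 tumors. Members were well covered, from 624 counts for Parp11 in non-responder 1 to 9835 counts for Parp14 in responder 5. Levels are in CPM (counts scaled to library size, with the trimmed mean of M values, TMM, correcting that size), which allows 1 gene to be compared between tumors. A gene was called when the adjusted p of edgeR over all genes tested was under 0.05.

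Parp9, Dtx3l, Parp14, Parp10, Parp12 and Parp11 had fitted levels higher in responders by 0.35 to 0.58 on the log2 scale, whereas the difference was 0.11 for Parp8, -0.08 for Parp1 and -0.00 for Parp2. None of the 9 members passed the adjusted threshold of edgeR. Across all genes tested, 8.06% were called in either direction and 4.71% higher in responders. Before adjustment 6 members had p under 0.05, all of them higher in responders, and 15.6% of all genes tested were so. DESeq2 called 2 members, Dtx3l (adjusted p = 0.0361) and Parp9 (adjusted p = 0.0442), both higher in responders, and limma-voom called 0. DESeq2 called 9.56% of all genes tested higher in responders and 6.48% lower. In no member were all responders on one side of all non-responders. Among all genes tested 10.4% had groups that did not overlap in either direction, and in 5.84% every responder was above every non-responder.

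Parp9, the macrodomain partner of the complex, ranged from 97.2 to 118 CPM in responders with a median of 109. Its level was 39.8, 104, 87.1 and 69.6 CPM in non-responders 1, 2, 3 and 4. Non-responders 1, 3 and 4 were below every responder, and non-responder 2 was above 2 of the 6. The means were 108 ± 8.84 (SD, n = 6) and 75.1 ± 27.3 CPM (SD, n = 4). On the log2 scale responders were higher by 0.53 (SE 0.20, 95% interval 0.09 to 0.97), which was not called (edgeR adjusted p = 0.111).

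Dtx3l, the ubiquitin ligase, had the highest estimate of the members. It ranged from 105 to 136 CPM in responders with a median of 120.3, and was at 40.4, 110.3, 97.2 and 71.9 CPM in non-responders 1 to 4. The tumors fell in the same way as for Parp9, with only non-responder 2 inside the range of the responders. Responders were higher by 0.58 on the log2 scale (SE 0.22, interval 0.11 to 1.06, edgeR adjusted p = 0.104), with means of 119.8 ± 11.6 (SD, n = 6) and 80.0 ± 30.8 CPM (SD, n = 4).

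Parp14, a mono-ADP-ribosyltransferase with macrodomains, had the highest mean CPM of the 9 in both groups, although non-responders 1 and 4 had more CPM of Parp1. Responders had 204 to 275 CPM with a median of 248, and non-responders 1 to 4 had 75.9, 248, 189 and 146 CPM. Non-responder 2 was above 4 of the 6 responders, and the other 3 were below all of them. The means of 244 ± 29.2 (SD, n = 6) and 165 ± 72.6 CPM (SD, n = 4) gave a log2 fold change of 0.57 with the widest interval of the members (SE 0.25, 0.02 to 1.11, edgeR adjusted p = 0.156).

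Parp10, a mono-ADP-ribosyltransferase with ubiquitin-binding motifs, showed a smaller difference. Its level was 66.6 to 76.1 CPM in responders (median 69.8) and 35.1, 69.2, 63.1 and 55.4 CPM in non-responders 1 to 4. The order of the non-responders was the same, and non-responder 2 was above 3 responders. In the edgeR fit the log2 difference was 0.35 (SE 0.15, interval 0.03 to 0.67, edgeR adjusted p = 0.143).

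Parp12, a zinc finger member found at the Golgi, was at 118 to 142 CPM in responders with a median of 132. In non-responders 1 to 4 it was at 60.8, 126, 113 and 95.7 CPM. Non-responder 2 was above 2 responders, and the others were below all 6. Responders were higher by 0.40 on the log2 scale (SE 0.16, interval 0.05 to 0.74, edgeR adjusted p = 0.123).

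Parp11, which has a WWE domain and whose promoter window held the ISRE core shown above, was at 58.9 to 79.8 CPM in responders (median 63.5). Non-responders 1 to 4 had 25.2, 62.9, 54.1 and 43.0 CPM. Here too only non-responder 2 reached the responders and was above 3 of them, and responder 1 was the highest tumor. The log2 fold change was 0.52 (SE 0.20, interval 0.08 to 0.97, edgeR adjusted p = 0.116).

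Parp8, a mono-ADP-ribosyltransferase placed in the group by name, had the smallest difference of the 7 IFN-linked genes. It was at 38.8 to 47.0 CPM in responders (median 41.4) and at 36.2, 41.6, 38.6 and 39.1 CPM in non-responders 1 to 4, so the groups overlapped and the tumors spanned 1.30-fold. Its log2 fold change was 0.11 (SE 0.06, interval -0.03 to 0.25, edgeR adjusted p = 0.269).

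Parp1, the main poly(ADP-ribose) polymerase at DNA breaks, was at 138 to 150.3 CPM in responders (median 146) and at 159.96, 149, 146 and 155 CPM in non-responders 1 to 4. Non-responder 1, the tumor with the least of the 6 IFN-linked genes, had the most Parp1. The log2 fold change was -0.08 (SE 0.04, interval -0.17 to 0.02, edgeR adjusted p = 0.251). Parp2, its relative, was at 31.6 to 37.8 CPM in responders (median 34.8) and 33.2, 36.5, 34.9 and 35.0 CPM in non-responders 1 to 4. Its log2 fold change was -0.00 (SE 0.05, interval -0.12 to 0.12, edgeR adjusted p = 0.975).

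**Figure D2:**
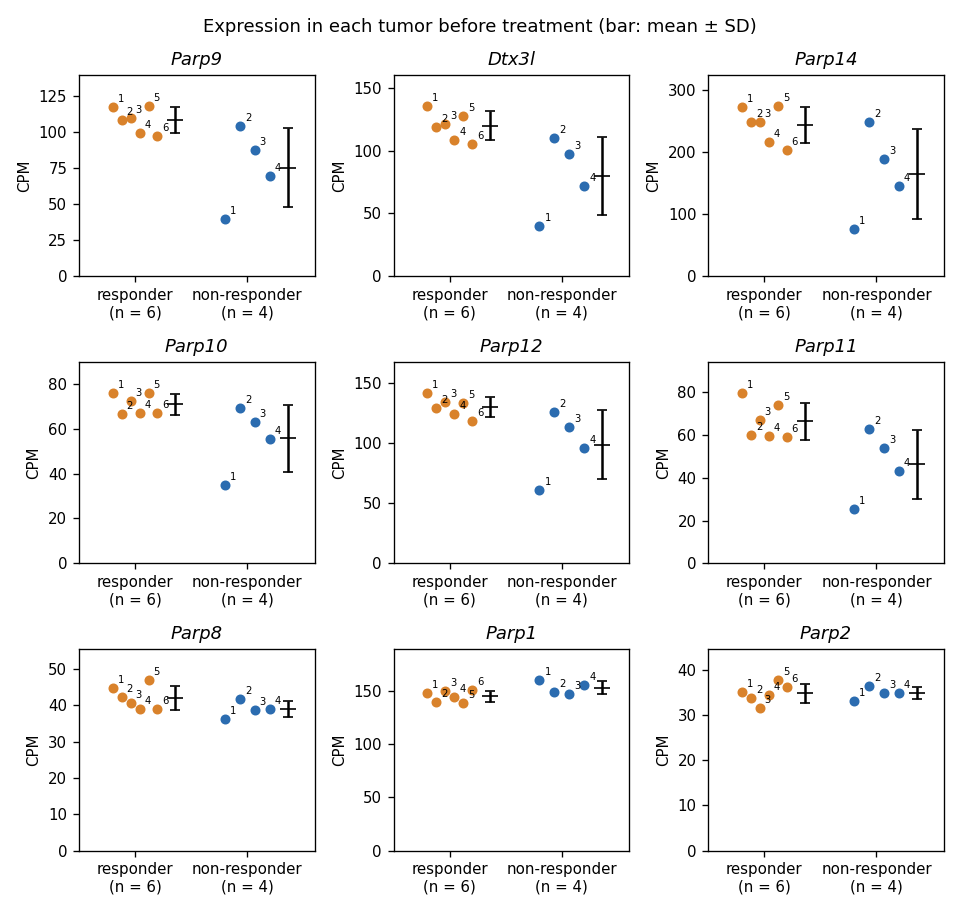
CPM (y axis, from 0) of the 9 genes in each tumor, responders in orange and non-responders in blue, with the mean ± SD as a bar beside each group and the tumor number beside each point. In the 6 genes from Parp9 to Parp11 the non-responders rise in the order 1, 4, 3, 2, with number 2 among the responders, whereas Parp8, Parp1 and Parp2 span 1.30-fold or less over all 10 tumors.

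The spread of the 6 genes was wider among the non-responders than among the responders. The coefficient of variation was 6.46% (Parp12) to 13.0% (Parp11) across responders and 26.6% (Parp10) to 44.0% (Parp14) across non-responders, whereas it was 3.55% to 7.79% in either group for Parp8, Parp1 and Parp2. From the lowest to the highest tumor the change was 3.63-fold for Parp14, 3.37-fold for Dtx3l, 3.17-fold for Parp11, 2.97-fold for Parp9, 2.34-fold for Parp12 and 2.17-fold for Parp10. It was 1.16-fold for Parp1 and 1.20-fold for Parp2.

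Relative to the responder mean, non-responder 1 had 31.1% of Parp14, 33.7% of Dtx3l, 36.8% of Parp9, 37.9% of Parp11, 46.7% of Parp12 and 49.6% of Parp10. The same tumor had 86.1% of Parp8, 95.4% of Parp2 and 110.5% of Parp1. Non-responder 2 had between 92.1% (Dtx3l) and 102% (Parp14) for the 6 genes. The low level was thus a matter of 3 tumors, of which number 1 was the farthest.

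**Figure D3:**
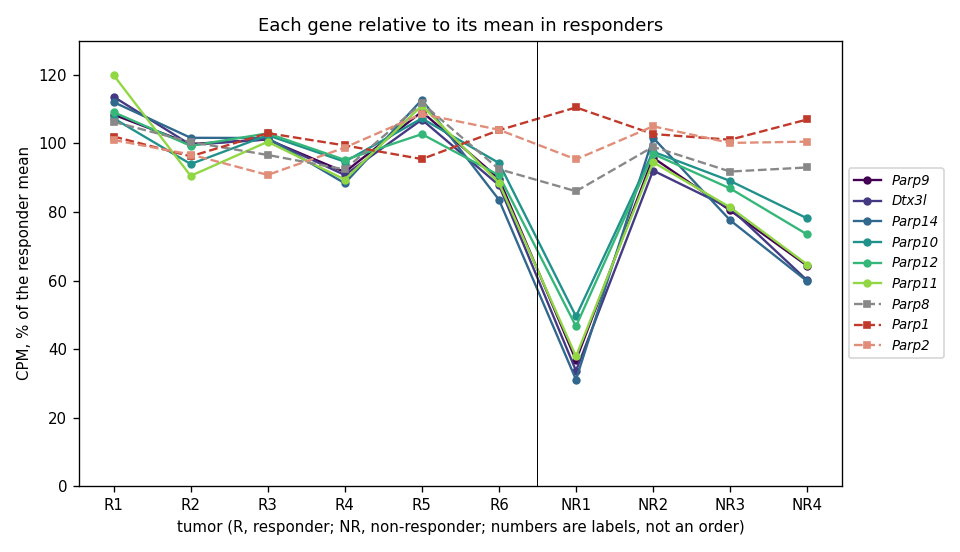
Each gene in each tumor as a percent of its mean in the 6 responders (y axis), with responders R1 to R6 and non-responders NR1 to NR4 along the x axis; lines join the values of 1 gene and the numbers are names, not an order. Solid lines for 6 genes drop together in NR1 to between 31.1% and 49.6% and return to between 92.1% and 102% in NR2, while the dashed lines of Parp8, Parp1 and Parp2 stay near 100%.

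Which tumors were included decided whether members were called. Without non-responder 2, 5 members passed the threshold (Parp9, Dtx3l, Parp14, Parp11 and Parp12, edgeR adjusted p from 0.0386 to 0.0487) and 6 had groups that did not overlap, all higher in responders. For these 6 only non-responder 2 had been inside the range of the responders, so the lack of overlap follows from leaving it out. In that fit 7.07% of all genes tested were called higher in responders and 11.7% in either direction, and the groups did not overlap in 10.2% with responders above and in 18.6% in either direction. Without non-responder 1 the estimates were lowest, 0.37 for Dtx3l and 0.33 for Parp14, and 0 were called. With 1 tumor left out at a time, the estimates of these 6 genes were thus lowest without non-responder 1 and highest without non-responder 2.

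Parp9, Dtx3l and Parp14 kept nearly fixed proportions, and so did Parp11, which lies on another chromosome. Parp9 counts were 0.862 to 0.986 times those of Dtx3l over the 10 tumors, a log2 ratio of -0.21 to -0.02, although Dtx3l itself changed 3.37-fold. Parp14 counts were 1.88 to 2.25 times those of Dtx3l, a log2 range of 0.26. Parp11 counts were 0.505 to 0.625 times those of Dtx3l, a log2 range of 0.31. Steady proportions were thus not particular to the neighbors on chromosome 16. For the ratio of Parp12 to Dtx3l the log2 value was 0.06 to 0.19 in responders and 0.20 to 0.59 in non-responders, apart by a narrow margin. That of Parp8 to Dtx3l did not overlap either, also by a narrow margin, at -1.61 to -1.44 in responders and -1.40 to -0.16 in non-responders. The ratios of Parp9, Parp14, Parp11 and Parp10 to Dtx3l overlapped between the groups. So did those of Parp2 to Parp1 and of Dtx3l to Parp1. No share over ratios of other gene pairs was computed to set beside them. Parp10 relative to Dtx3l was at -0.84 to -0.66 in responders and -0.67 to -0.20 in non-responders. The ratios of Parp12 and Parp10 were highest in non-responder 1, where both genes kept more of their responder level than Dtx3l did.

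Across the 10 tumors, log2 CPM of Parp9 and Dtx3l had Pearson's r = 0.998 (permutation p = 1e-05, the smallest that 100000 resamples can give; adjusted p = 3e-05 over 36 pairs of members) and Spearman's rho = 0.988 (permutation adjusted p = 0.00018). Non-responders 1 and 4 were the farthest from the median, and without them r was 0.973 (exact permutation adjusted p = 0.00179). The 6 responders alone gave 0.973 (exact permutation adjusted p = 0.0444). Leaving out any single tumor kept r between 0.991 and 0.999, and after subtracting group means it was 0.996. The shared exon bases can give both genes part of the same reads, and their part in this relation was not tested.

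Parp14 followed its neighbors in the same way. For Parp9 and Parp14 r was 0.997 over the 10 tumors (permutation adjusted p = 3e-05) and 0.994 in the 6 responders (exact permutation adjusted p = 0.0444). Genes far apart in the genome did so too: the 15 pairs among Parp9, Dtx3l, Parp14, Parp10, Parp12 and Parp11 had r from 0.986 to 0.998 and rho from 0.891 to 0.988, with permutation adjusted p of at most 7.2e-05 for r. Without the 2 farthest tumors r was 0.882 to 0.979 and all 15 passed. Within the responders it was 0.838 to 0.994 and 9 of the 15 passed (exact permutation adjusted p from 0.0444 to 0.116).

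For Parp8 the values of r were lower. Its r with the 6 was 0.727 to 0.786 over all tumors (permutation adjusted p from 0.0113 to 0.0203). Without the 2 farthest tumors, responders 1 and 5, it was 0.781 to 0.860 and 6 of 6 pairs passed (exact permutation adjusted p from 0.00765 to 0.0321). Within responders it was 0.750 to 0.939, where 0 of 6 pairs passed (exact permutation adjusted p from 0.0546 to 0.15). Parp1 ran the opposite way, with r from -0.791 to -0.739 with the 6 over all tumors. With non-responders 1 and 4 left out it was -0.353 to -0.129 and 0 of 6 passed, so this relation rested on those tumors. The check on Parp8 left out other tumors and kept non-responders 1 and 4. It therefore cannot show whether the r of Parp8 rested on them, and the checks on Parp8 and Parp1 are not comparable. Parp2 had r from 0.261 to 0.335 and 0 of 6 passed (permutation adjusted p from 0.394 to 0.440).

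**Figure D4:**
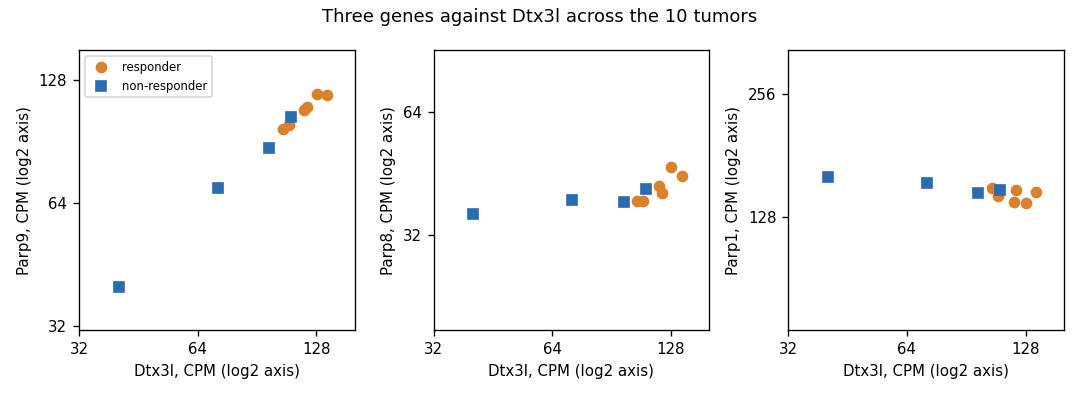
CPM of Parp9, Parp8 and Parp1 (y axes) against CPM of Dtx3l (x axes) in the 10 tumors, all on log2 axes, with responders as orange circles and non-responders as blue squares. Parp9 follows Dtx3l closely (r = 0.998) over its 3.37-fold range, Parp8 is nearly flat (r = 0.748), and Parp1 is slightly higher in the 2 tumors lowest in Dtx3l (r = -0.786).

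Ptprc, which encodes CD45 and marks leukocytes, was set against each of the 9 members, and p-values were adjusted over these 9 relations. Its r with the 6 IFN-linked genes named above was 0.892 (Parp12) to 0.920 (Parp9), with permutation adjusted p of at most 0.00048, and within the responders 0.553 (Parp12) to 0.810 (Parp9), where exact permutation adjusted p was 0.125 to 0.291. Without the 2 tumors farthest from the median, responder 5 and non-responder 1, r with the 6 was 0.875 (Parp11) to 0.948 (Parp9) and all 6 passed (exact permutation adjusted p from 0.0035 to 0.0064). For Parp8 r with Ptprc was 0.845 over all tumors and 0.864 within the responders (exact permutation adjusted p = 0.125), and 0.577 without the 2 tumors farthest from the median (exact permutation adjusted p = 0.173). For Parp1 r was -0.842 (permutation adjusted p = 0.00333) but -0.540 without the 2 farthest tumors (exact permutation adjusted p = 0.186), and for Parp2 it was 0.304 (permutation adjusted p = 0.395).

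Over all 13732 tested genes with a mean of at least 1 CPM, those most like each member in r over the 10 tumors were listed. For Parp9 they were Xaf1 (0.998), Dtx3l (0.998) and Ly6a (0.997). Parp14 had Parp9 (0.997), Xaf1 (0.996) and Dtx3l (0.994), and Dtx3l had Parp9 (0.998) and Zbp1 (0.997). For Parp12 they were Stat2 (0.998), Dtx3l (0.997) and Irgm2 (0.996), for Parp11 Lgals3bp (0.993), Trim30a (0.992) and Dtx3l (0.991), and for Parp10 Irf9 (0.993), Tapbpl (0.992) and Gm12250 (0.992).

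None of the 3 genes closest to Parp8, Parp1 or Parp2 was a member. The closest to Parp8 were Nxpe3 (0.981), Pgap2 (0.963) and Lipo3 (0.953), and among the 6 genes Parp11 stood nearest, at place 766 in that order, and Parp12 farthest, at place 1363. Parp1 had Mprip (0.939), 1700017B05Rik (0.928) and Ap1s1 (0.926), and Parp2 had Slc39a9 (0.918), Cnot8 (0.916) and Gm5512 (0.887). With 10 tumors and this many genes, some high values of r arise for any gene.

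To compare levels between genes, CPM was divided by the length of the merged exons in kb. In responders Parp12 was highest at 32.6 ± 2.11 CPM per kb (SD, n = 6), followed by Parp1 (27.3 ± 0.972), Parp14 (26.2 ± 3.14), Parp9 (22.2 ± 1.81), Dtx3l (20.9 ± 2.03), Parp10 (16.6 ± 1.07), Parp2 (9.59 ± 0.587), Parp11 (9.47 ± 1.24) and Parp8 (4.73 ± 0.368). Parp12 and Parp1, Dtx3l and Parp10, Parp10 and Parp2, and Parp11 and Parp8 were the neighbors in this order whose responder ranges did not overlap. The lowest non-responder had 15.2 CPM per kb of Parp12, 8.16 of Parp14, 7.05 of Dtx3l and 3.59 of Parp11.

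Of 8 other transferases of the PARP family, 3 had estimates above 0 and 0 were called by edgeR. These 8 were not sorted by whether IFN induces them, so they are not a contrast without IFN response. The median log2 fold change was -0.12, beside -0.01 over all genes tested. Tnks2, a tankyrase, had 229 ± 14.6 (SD, n = 6) CPM in responders and 254 ± 8.31 (SD, n = 4) in non-responders (log2 fold change -0.15, edgeR adjusted p = 0.0876), and Parp16, found at the endoplasmic reticulum, had 10.6 ± 0.581 and 12.0 ± 0.177 CPM (-0.18, edgeR adjusted p = 0.0886). Every responder was below every non-responder for both, as in 4.55% of all genes tested. At an unadjusted p under 0.05 there were 4 of the 8, beside 29.1% of all genes in either direction. They were Tnks2, Parp16, Parp3 (0.30, interval 0.07 to 0.54, edgeR adjusted p = 0.0925) and Parp4 (0.17, interval 0.04 to 0.31, edgeR adjusted p = 0.0937). DESeq2 called 2, Parp3 higher (adjusted p = 0.0485) and Tnks2 lower (adjusted p = 0.0468), beside the shares of all genes given above for DESeq2.

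**Figure D5:**
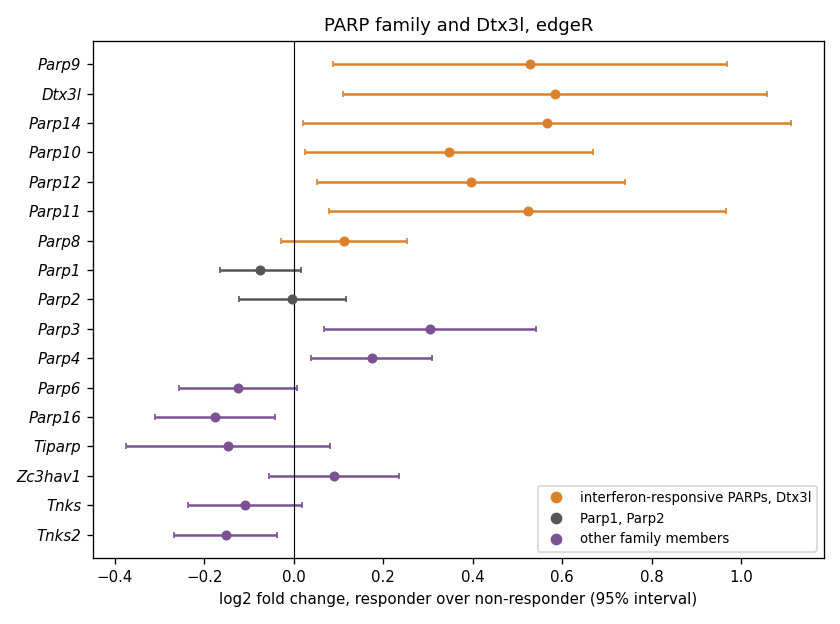
Log2 fold change, responder over non-responder, with its 95% interval from edgeR (x axis) for the members and the other measured transferases of the family (y axis), in orange, gray and purple. Estimates of Parp9, Dtx3l, Parp14, Parp10, Parp12 and Parp11 lie between 0.35 and 0.58 with intervals above 0. The intervals of Parp3 (0.07 to 0.54) and Parp4 (0.04 to 0.31), outside the IFN-linked group, also lie above 0. The interval of Parp2 spans -0.12 to 0.12, and Tnks2 (-0.15) and Parp16 (-0.18) lie below 0.

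Of 7 genes that remove ADP-ribose, among them the glycohydrolase gene Parg, 0 were called by edgeR and the median log2 fold change was 0.02. Smallest in p were Macrod1 (0.32, edgeR adjusted p = 0.0843) and Macrod2 (-0.21, edgeR adjusted p = 0.692), both macrodomain hydrolases. Macrod2 was barely detected, at 0.172 to 0.574 CPM in responders and 0.323 to 0.520 CPM in non-responders. Its estimate had an SE of 0.31 and an interval of -0.89 to 0.47. One of the 7 had an unadjusted p under 0.05, and DESeq2 called 0.

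Of 9 partners of Parp1 and Parp2 at DNA breaks, edgeR called Lig3, lower in responders, and not the other 8. Lig3, a DNA ligase of single-strand break repair, ranged from 56.9 to 69.6 CPM in responders with a median of 65.0 and from 72.5 to 74.3 CPM in non-responders, without overlap. The log2 fold change was -0.20 (SE 0.05, edgeR adjusted p = 0.0436), but the call was lost with no filter on low counts, with thinned libraries, with Ptprc as a covariate and in 8 of the 10 fits that left out 1 tumor. Of these fits, those with Ptprc and without non-responder 4 called 0 of all genes. Without non-responder 1 edgeR called 16 of all genes, and without responder 3 it called 17. In those fits nearly every gene lost its call. Lig3 also lost its call where 931 (no filter) and 1131 (thinned libraries) of all genes were called. The fits without responder 1, 2, 5 or 6 or non-responder 3 lost it too, with 244 to 735 of all genes called. The median of the 9 was -0.05. DESeq2 called 2 of them lower in responders, Lig3 (adjusted p = 0.0114) and Aplf (adjusted p = 0.046).

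NAD+ is the substrate of all PARPs, and 3 of 12 genes of its metabolism were called by edgeR. Bst1 and Cd38, ectoenzymes that consume NAD+ and are carried by leukocytes, were higher in responders. Bst1 was at 17.0 to 29.2 CPM in responders and 8.32 to 13.3 in non-responders (log2 fold change 0.96, SE 0.18, edgeR adjusted p = 0.0243). Cd38 was at 56.4 to 84.6 and 32.1 to 56.1 CPM (0.55, SE 0.15, edgeR adjusted p = 0.0499). Nmnat2, a synthase of NAD+ known from neurons, was lower in responders, at 7.08 to 11.5 CPM against 12.7 to 22.9 (-0.89, SE 0.16, edgeR adjusted p = 0.0231). The groups did not overlap for any of these 3, and the median of the 12 was 0.27. DESeq2 called 5 of the 12. Besides these 3 they were Nampt, higher in responders (0.45, adjusted p = 0.0208), and Nmnat1, lower (-0.22, adjusted p = 0.045). With Ptprc as a covariate, and without responder 3, non-responder 1 or non-responder 4, 0 of the 12 were called. Those fits called at most 17 of all genes.

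Among 12 genes of IFN signaling, 11 had estimates above 0 and 0 were called by edgeR, with a median log2 fold change of 0.24 and 8 at an unadjusted p under 0.05. Of all 16041 genes tested, 7731 had estimates above 0 and 29.1% had an unadjusted p under 0.05 in either direction. DESeq2 called 5 and limma-voom 1 of the 12, beside 2573 and 1082 of all genes tested. Irf8, a transcription factor of myeloid cells, had 181 ± 20.999 (SD, n = 6) CPM in responders and 115 ± 35.7 (SD, n = 4) in non-responders (0.66, edgeR adjusted p = 0.0512). Ifnar2, a chain of the type I IFN receptor, had 64.8 ± 7.09 and 53.5 ± 3.84 CPM (0.28, edgeR adjusted p = 0.0543).

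Of 21 IFN-stimulated genes outside the PARP family, 1 was called higher and all 21 had estimates above 0, with a median of 0.54, close to the median of 0.52 over the 7 IFN-linked members. Bst2, which encodes tetherin, was at 185 to 214 CPM in responders and at 92.4 to 173 in non-responders (0.55, SE 0.14, edgeR adjusted p = 0.0378). DESeq2 called 7 of the 21, 9 were called without non-responder 2, and 0 with Ptprc as a covariate or in 8 of the 10 fits that left out 1 tumor. Of all genes tested, DESeq2 called 9.56% higher in responders, and edgeR without non-responder 2 called 7.07% higher. The fits with Ptprc and without non-responder 4 called 0 of all genes. Summed over the 21, responders had 2110.0 to 2684 CPM, and non-responders 1 to 4 had 828.6, 2266, 1952 and 1506 CPM. Non-responder 2 was again inside the range of the responders, and the other 3 were below it in the order seen for the members.

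The tumors also differed in the RNA of their leukocytes. In bulk tissue, fewer cells of a type and less RNA per cell cannot be told apart. Of 5 leukocyte markers 4 were called higher in responders (Ptprc, Laptm5, Coro1a and Itgb2), and the sum of the 5 was 1118 to 1688 CPM in responders and 705, 1029, 1007 and 874 CPM in non-responders 1 to 4. Of 6 macrophage markers 4 were called higher (Adgre1, Cd68, C1qa and C1qb), with sums of 2255 to 3403 and 1681 to 2203 CPM. Csf1r and Mrc1 were not called, and the estimate of Mrc1 was below 0 (-0.13). Neither sum overlapped between the groups, unlike any of the members, and non-responder 1 was lowest in both.

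With the log2 CPM of Ptprc in the model, the estimates of the 6 genes were from -0.25 (Parp14) to -0.10 (Parp12), with 0 of all genes called by edgeR (845 at an unadjusted p under 0.05). Ptprc itself was at 326 to 499 CPM in responders and 181 to 307 CPM in non-responders, without overlap, so at no level of this covariate were there tumors of both groups. Without non-responder 4, edgeR called 0 of all genes, the markers and other lists included, and 4106 had an unadjusted p under 0.05.

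Lymphocyte and dendritic markers were in part higher as well. None of 6 T cell markers was called, with summed levels of 114 to 264 CPM in responders and 70.8 to 131 in non-responders, led by Cd3e (1.27, edgeR adjusted p = 0.0523) and Cd8a (1.91, edgeR adjusted p = 0.0535). Klre1 was 1 of 4 natural killer cell markers tested and called higher (1.31, edgeR adjusted p = 0.0439), with sums of 20.3 to 42.8 and 6.82 to 18.1 CPM. Xcr1, on cross-presenting dendritic cells, was 1 of 5 dendritic cell markers called higher (1.46, edgeR adjusted p = 0.0222), with sums of 245 to 321 and 116 to 274 CPM. The other 4 were not called, and the estimate of Zbtb46 was below 0 (-0.16). None of the 3 tested B cell markers was called (sums 2.87 to 7.33 and 2.10 to 3.51 CPM), nor any of 4 tested neutrophil markers (68.3 to 137 and 51.4 to 111 CPM).

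Markers of the tissue around the tumor were called for muscle. Acta1 and Ckm were 2 of 5 skeletal muscle markers higher in responders, with sums of 348 to 1122 and 308 to 402 CPM. The 3 tested adipocyte markers had estimates of 1.93 to 2.33 without a call, with sums of 2.53 to 16.03 and 0.565 to 5.67 CPM. None of 5 fibroblast markers (3384 to 3948 and 2866 to 4210 CPM) and none of 4 endothelial markers (84.2 to 139.5 and 66.9 to 102 CPM) was called. The part of these cells in the levels of the members was not tested.

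The labels give colorectal carcinoma as the cell type, and markers of colon epithelium were mostly near 0. Epcam, Krt8, Krt18, Cdx1 and Vil1 were under the filter on low counts, with Epcam at 0.121 to 0.709 CPM and Cdx1 listed at 0 in all 6 responders. Of the 4 tested, 0 were called. Krt20 had 29.1 ± 9.80 (SD, n = 6) CPM in responders and 52.9 ± 18.5 (SD, n = 4) in non-responders (-0.87, edgeR adjusted p = 0.0834), and the sum of the 9 was 17.5 to 42.1 and 40.3 to 84.8 CPM.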

How the data were processed

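PolyA RNA of 10 CT26 tumors was sequenced as 150 bp paired-end reads. According to the methods and labels, the authors checked reads in FastQC, quantified transcripts in Kallisto and summed them per gene through tximport on mm10 (GRCm38). What they deposited is expected counts, that is estimated counts per gene (45.1% fractional) that the authors did not scale to depth. The annotation release, tximport option and strand setting are not given in the sources used here. Pseudoalignment splits reads between transcripts that share sequence. Rows with no gene name (9633) held 1.04% to 1.23% of a tumor's counts and took a symbol from a gene table where it had one.

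Groups came from the response label, and tumors were numbered in accession order. The members and gene lists were chosen with earlier results of these data known. Estimated counts were rounded and tested in R 4.3.3 with edgeR 4.0.16 (filterByExpr with minimum count 10 and minimum total 15, leaving 16041 genes, with no more than 0.0716% of a tumor's counts taken out, TMM, glmQLFit and glmQLFTest, two-sided, Benjamini-Hochberg, threshold 0.05), after a test on simulated data. SE is |log2 fold change| over the root of F. A prior count of 2 went into log2 CPM. DESeq2 1.42.0, limma 3.58.1, other filters and scalings, thinned libraries, Ptprc as a covariate and leaving out each tumor were alternatives. Correlations used two-sided permutation tests with SciPy 1.17.1. Coordinates and exon lengths are from GENCODE M21, which matched 35912 of 36009 identifiers. From each list the text names the called genes or, with none called, the 2 with the smallest p. In some lists it also names genes that were not called or went the other way. For each member it names the 3 genes highest in r. Results for 1 gene of the lists, also planned as a covariate, are not reported here, and the counts of its list leave it out.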

Additional observations from a re-analysis of the deposited data

Results flagged for a closer look

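In 70 groups of values examined for a single tumor far from the others of its group, 4 had one, where chance would give about 3.5. Parp4, the vault PARP, was at 63.5 CPM in responder 1 and at 58.7 to 60.4 CPM in the other 5 responders. Tiparp, a mono-ADP-ribosyltransferase induced by the aryl hydrocarbon receptor, was at 73.5 CPM in responder 5 and at 93.3 to 101 CPM in the other 5. In the same responder 5, Ptprc was at 499 CPM and in the others at 326 to 388 CPM. The log2 count ratio of Parp9 to Dtx3l was -0.21 in responder 1 and -0.15 to -0.12 in the other 5 responders.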

How the results depend on the processing

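No member was called by edgeR with another scaling, another filter, thinned libraries or Ptprc as a covariate, nor by limma-voom, whereas DESeq2 called 2. Leaving out 1 tumor gave 0 to 5 members called, the 5 without non-responder 2, and 0 to 6 with groups that did not overlap. Genes called among all tested were 1293, and 2573 by DESeq2, 0 with Ptprc as a covariate (845 at an unadjusted p under 0.05), and 0 to 1897 with 1 tumor left out. The count was 0 without non-responder 4 (4106 unadjusted), 16 without non-responder 1 and 17 without responder 3, so the share of all genes called rests on single tumors. With the Ptprc covariate the log2 fold change turned to -0.0798 for Parp8, -0.129 for Parp9, -0.132 for Parp10, -0.14 for Parp11, -0.0988 for Parp12, -0.255 for Parp14, -0.108 for Dtx3l and 0.0168 for Parp1. Parp2, at -0.00, was at -0.0977 with that covariate, at 0.0055 with thinned libraries and between -0.0281 and 0.0229 with 1 tumor left out. The r of Parp9 and Dtx3l was 0.991 to 0.999 with 1 tumor left out and 0.998 with the other scaling. No paired analysis was possible because the labels do not tie a tumor of one group to a tumor of the other.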
